A study of Mus musculus with 4 samples.

Results

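The genes described here encode the major histocompatibility complex (MHC) class I molecule and the machinery that loads it with peptide. They were the 10 rows of the deposited table, of 56748 genes listed, whose gene name was H2-K1, H2-D1, B2m, Tap1, Tap2, Tapbp, Nlrc5, Psmb8, Psmb9 or Psmb10. RNA was measured in the small intestine (SI) of mice at 1 day post 12 Gy total body irradiation (TBI), in 2 p53+/+ animals, labelled WT, and 2 p53-/- animals. The study's methods describe mice of 8 to 12 weeks of age, matched for age and sex. The Xist counts given below do not bear out the matching for sex in these libraries. All 4 mice were irradiated, so the values compare genotypes after TBI and not irradiated with unirradiated tissue. The p53-/- animals lack p53 in every cell type, so that loss of p53 in the epithelium and in immune cells cannot be told apart. The columns of the table are numbered 7 and 8 for p53+/+ and 9 and 10 for p53-/-, numbers that serve here to name the libraries and do not pair the animals.

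MHC class I molecules display peptides from inside the cell to CD8+ T cells. Proteasomes cut proteins into peptides, the TAP transporter carries the peptides into the endoplasmic reticulum, and tapasin with its partner chaperones loads them onto a heavy chain bound to β2-microglobulin. Interferon gamma and the transactivator NLRC5 are known inducers of these genes, and interferon also exchanges the catalytic subunits of the proteasome for those of the immunoproteasome. Nearly all nucleated cells express class I molecules, intestinal epithelium and leukocytes included.

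The libraries held 15005479 to 22173164 counts, and 16094 genes had enough counts to be tested. CPM, the unit of the levels given here, is a gene's count relative to its library's total after TMM scaling, times a constant. The targeted gene Trp53 was at 57.7 and 47.1 CPM in p53+/+ SI and at 19.8 and 22.5 CPM in p53-/- SI, a log2 fold change of -1.31 (adjusted p = 0.0602, edgeR's quasi-likelihood test). The p53 target Cdkn1a had a log2 fold change of -1.43 (edgeR adjusted p = 0.0592), and the p53 targets Bax, Phlda3 and Eda2r fell. Library 10 stood apart. It held 588 counts of Xist, an RNA of female cells, against 0 to 4 in the others. By Xist the animals were thus not all of the same sex, and the test took no account of sex. Library 10 also held 894 counts of the B cell and follicular marker Cr2 against 0 to 10 in the others. The ribosomal RNA gene Rn18s-rs5 took 4.59% of its counts, against 0.296 to 0.863% in the others. In library 8, smooth muscle markers summed to 3672 CPM, against 395 to 855 CPM in the others. Epithelial markers, Epcam among them, summed to 24582, 17789, 16649 and 13768 CPM in libraries 7, 8, 9 and 10, and all 8 were present in each.

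Class I promoters carry the SXY module, a string of short boxes bound by the RFX complex, CREB family factors and NF-Y, on which NLRC5 acts. The stretch from the X2 core (letters TGACG) to the Y box (letters ATTGG, NF-Y's recognition sequence) is printed for the classical heavy chains and B2m, because these are the genes through which the class I molecule itself is made. Sequences are from RefSeq, build GRCm38.p6, read 5′ to 3′ along the gene, with both boxes in capitals.
H2-K1, chr17:34000359-34000388, minus strand: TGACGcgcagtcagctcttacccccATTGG
H2-D1, chr17:35262993-35263022, plus strand: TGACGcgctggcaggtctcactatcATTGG
B2m, chr2:122147609-122147638, plus strand: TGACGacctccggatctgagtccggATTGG
In all 3 genes the boxes were 20 bases apart, although the bases between them differed. This spacing was chosen after the sequences were seen. On either strand, TGACG, then 20 bases of any kind, then ATTGG occurred in 31 of 32544 promoter windows of the same length (0.0953%), which reach from 250 bases before to 50 bases after each gene's start. Each box alone was common: TGACG was in 20.9% and ATTGG in 37.4% of windows. The H2-K1 and B2m stretches overlapped no annotated exon, and that of H2-D1 lay within an exon of the annotated transcript H2-D1-202.

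A longer stretch of the B2m promoter, at chr2:122147538-122147646 on the plus strand, also holds a match to the interferon-stimulated response element core (letters GAAA, any 2 bases, GAAA), and all 3 matches are in capitals.
B2m: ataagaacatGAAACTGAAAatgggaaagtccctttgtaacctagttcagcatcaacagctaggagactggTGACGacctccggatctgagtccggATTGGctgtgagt
The response element core was in 3.45% of all windows, and B2m was the only member of the 8 with a window to hold it. In H2-K1, at chr17:34000353-34000467 on the minus strand, a match to the NF-kB motif lies upstream of the same pair of boxes.
H2-K1: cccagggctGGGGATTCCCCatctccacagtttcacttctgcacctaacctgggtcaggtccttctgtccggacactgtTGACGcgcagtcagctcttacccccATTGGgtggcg
The NF-kB motif was in 8.49% of windows, and among the members in those of H2-K1, H2-D1 and B2m. The B2m match, on the minus strand, lies within the printed B2m stretch, where it was left in lower case.
Tap1 and Psmb9 are neighbours on opposite strands, with 225 bases between their annotated starts, in a stretch that other annotated transcripts of Psmb9 cover with exons. This region held an X2 core at chr17:34187458-34187487 and a Y box at chr17:34187322-34187351, both printed on the plus strand, where the Y box reads CCAAT. All 30 bases of each printed stretch lie within annotated exons of Psmb9, and the stretch with the Y box runs past the RefSeq start of Psmb9.
Tap1 and Psmb9, X2 core: cccagagacaggTGACGacagagggtcctg
Tap1 and Psmb9, Y box: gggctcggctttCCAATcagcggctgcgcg
Matches of letters describe these windows and do not show binding. Nlrc5 and Tap2 had no entry in the promoter table.

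In p53-/- SI post-TBI, the regulator Nlrc5 and the immunoproteasome subunits Psmb8 and Psmb9 rose, by 15.8-fold, 4.63-fold and 4.06-fold. The remaining 7 members did not pass edgeR's test. Fitted log2 fold changes of these 7 ran from 0.17 for H2-K1 to 1.68 for Tap1. The calls depended on the processing. Among 13 alternatives, 11 kept Psmb8, 9 kept Psmb9 and 6 kept Nlrc5 at an adjusted p under 0.05, while 6 put Tap1 there. Of the 10 members, 3 were past the threshold as higher (adjusted p under 0.05, edgeR's quasi-likelihood test), where 0.298% of all genes tested were, and 0 were lower, where 0.193% were. DESeq2 on the same counts called these 3 and Tap1, Tap2, Psmb10 and H2-D1, 7 members in all, higher and 0 lower, where it called 5.05% and 4.12% of all genes. Without library 9, edgeR called 0 members, where 0.249% of all genes were higher, with 6 members at an unadjusted p under 0.05 and a higher level, where 7.13% of all genes were. Without library 10 it called 0 members and 0% of all genes, again with 6 members at an unadjusted p under 0.05 and a higher level, where 4.68% of all genes were. In 10 of 10 members each p53-/- library exceeded each p53+/+ library, where 26.4% of all genes tested did so, and this held for all 10 with library size only, RLE and upper-quartile scaling as well. An unadjusted p under 0.05 and a higher level were seen for 6 members, as for 1617 of the 16094 genes tested. The median log2 fold change was 0.88 for the members and -0.01 for all genes tested. The members together summed to 4286 and 4076 CPM in p53+/+ SI and to 5310 and 6375 CPM in p53-/- SI.

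In whole tissue, fewer cells of a type and less RNA per cell cannot be told apart, and leukocyte markers had higher values in p53-/- SI along with the class I genes. Ptprc, which encodes the leukocyte antigen CD45, was at 6.56, 15.5, 41.1 and 134 CPM in libraries 7, 8, 9 and 10. T cell markers summed to 8.48 and 15.8 CPM in p53+/+ and 73.8 and 135 CPM in p53-/- SI, with 11 of 11 genes above in both p53-/- libraries. By edgeR 0 of them passed the test and 11 had an unadjusted p under 0.05, while DESeq2 called 10. B cell markers summed to 1.11, 1.82, 23.3 and 491 CPM, with 8 of 8 genes above and 5 of them at 0 counts in each p53+/+ library. Of the 7 tested, 0 passed edgeR's test and 7 had an unadjusted p under 0.05, while DESeq2 called 5. The sums of the macrophage and monocyte markers were 86.7, 219, 268 and 707 CPM, with 7 of 8 genes above. Those of the dendritic cell markers were 3.53, 14.9, 27.6 and 45.4 CPM, with 7 of 7 above. In both lists edgeR and DESeq2 called 0 genes. By edgeR, 2 macrophage and monocyte markers and 3 dendritic cell markers had an unadjusted p under 0.05. Follicle and M cell markers summed to 43.5, 59.3, 86.6 and 288 CPM, with 4 of 7 genes above. Of the 5 tested, 0 passed edgeR's test and 4 had an unadjusted p under 0.05, while DESeq2 called 3. Endothelial markers summed to 16.5, 57.2, 46.4 and 59.6 CPM and overlapped between genotypes. Of the epithelial markers, 7 of 8 lay below in both p53-/- libraries, where 24.4% of all genes tested did so, with a median log2 fold change of -0.46. By edgeR 0 of 8 passed the test and 0 had an unadjusted p under 0.05, while DESeq2 called 1 lower. The part of the cell makeup in the class I result was not tested.

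**Figure D1:**
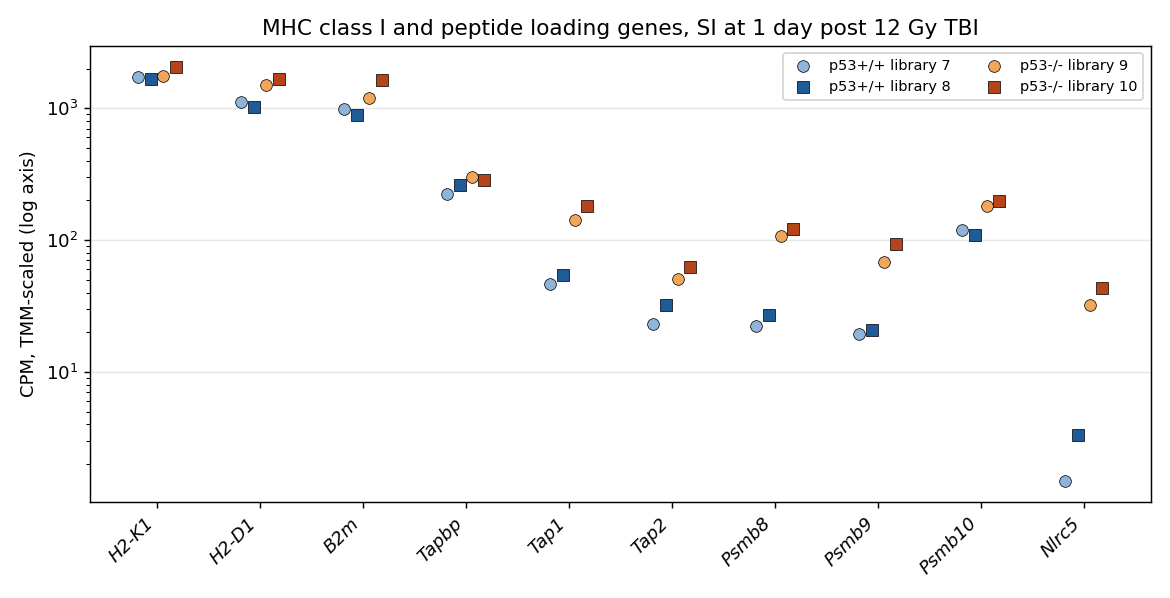
CPM after TMM scaling of each of the 10 class I and peptide loading genes in the 4 libraries, on a log axis. Nlrc5 ran from 1.49 and 3.31 CPM in p53+/+ to 32.0 and 43.6 CPM in p53-/- SI, while H2-K1 stayed between 1666 and 2068 CPM in all 4 libraries.

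The regulator came first in size. Nlrc5 (ENSMUSG00000074151) encodes a member of the NOD-like receptor family that enters the nucleus and activates class I promoters. It had 24 and 51 counts in p53+/+ SI and 729 and 877 in p53-/- SI, or 1.49, 3.31, 32.0 and 43.6 CPM. Even the smallest of the library-to-library ratios, library 9 over library 8, was 9.66-fold, although the p53+/+ libraries themselves differed from each other. Its log2 fold change was 3.98 (standard error 0.446, edgeR adjusted p = 0.0456). Among 13 alternatives only 6 kept Nlrc5 past the threshold. The edgeR adjusted p was 0.0516 with RLE factors and 0.0692 with library size only. With library 10 left out the log2 fold change was 3.77, with an adjusted p of 0.471 from edgeR, and with library 9 left out it was 4.18, with an adjusted p of 0.0871. Ciita, the related transactivator of class II genes, was at 3.84, 7.46, 65.4 and 97.5 CPM and also rose, with a log2 fold change of 3.85 (edgeR adjusted p = 0.0410). The ratio of Nlrc5 to Ciita counts was 0.387 and 0.443 in p53+/+ and 0.489 and 0.447 in p53-/- SI. Of 8 factors of the SXY module, through which NLRC5 is thought to act, 0 passed the test in either direction with edgeR or DESeq2, and 0 had an unadjusted p under 0.05. Their median log2 fold change was -0.10. The highest, Rfx5, a DNA-binding subunit of the RFX complex, was at 5.57, 8.56, 8.63 and 14.8 CPM. Rfxank, another subunit of that complex, had the lowest log2 fold change, -0.40 (edgeR adjusted p = 0.447).

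Of the 3 catalytic subunits of the immunoproteasome, 2 rose. Psmb8 (ENSMUSG00000024338) encodes β5i, which takes the place of β5, the product of Psmb5. It was at 22.3 and 27.0 CPM in p53+/+ SI and at 108 and 120 CPM in p53-/- SI. The ratios between single libraries ran from 3.996-fold to 5.40-fold, so that the genotypes were well apart and the replicates close. The log2 fold change was 2.21 (standard error 0.180, edgeR adjusted p = 0.0271).

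Psmb9 (ENSMUSG00000096727) encodes β1i, the replacement for β1, the product of Psmb6. It was at 19.2, 20.8, 68.6 and 94.0 CPM in libraries 7, 8, 9 and 10, a log2 fold change of 2.02 (standard error 0.209, edgeR adjusted p = 0.0416). Psmb10 (ENSMUSG00000031897) encodes β2i, the counterpart of β2, the product of Psmb7. It was at 120 and 110 CPM in p53+/+ SI and at 181 and 199 CPM in p53-/- SI. Its log2 fold change of 0.73 (standard error 0.170) did not pass the test (edgeR adjusted p = 0.134), although the libraries did not overlap. Without library 10, the log2 fold changes of Psmb8, Psmb9 and Psmb10 were 2.17, 1.82 and 0.70. The adjusted p of Psmb8 was then 0.379 and that of Psmb9 0.401, both from edgeR. Without library 9 it was 0.0547 for each, also from edgeR.

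Of the 3 constitutive subunits that these replace, 0 passed the test with edgeR or DESeq2 and 0 had an unadjusted p under 0.05. Psmb5, Psmb6 and Psmb7 had log2 fold changes of 0.03, -0.13 and 0.11, signs that turned when single libraries were left out, and their libraries overlapped between genotypes. Levels of a pair are compared per kilobase of the principal transcript. By this measure Psmb8 made up 13.9% and 19.5% of the sum of Psmb8 and Psmb5 in p53+/+ SI, and 47.6% and 47.0% in p53-/- SI. Psmb9 made up 9.31% and 12.5% of its pair with Psmb6 in p53+/+ and 33.4% and 36.0% in p53-/- SI. Psmb10 was the larger share of its pair with Psmb7 in each library, 63.7% and 67.2% in p53+/+ and 73.8% and 74.8% in p53-/- SI. The ratio of immune to constitutive subunit was therefore 4.54-fold, 4.40-fold and 1.52-fold higher in p53-/- SI for the Psmb8, Psmb9 and Psmb10 pairs. None of the 3 ratios overlapped between genotypes, and 2 libraries against 2 allow no exact permutation p under 0.333. The shares depend on the length used: with all annotated exons, Psmb8 was 7.20%, 10.5%, 30.4% and 30.0% of its pair in libraries 7, 8, 9 and 10. The fold difference of the ratio does not depend on length. Of the 50-base windows of Psmb5 transcripts, 54.1% are shared with other genes, pseudogenes among them, so that its reads could have been split. Of those of Psmb8, 11.9% are shared with other genes.

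**Figure D2:**
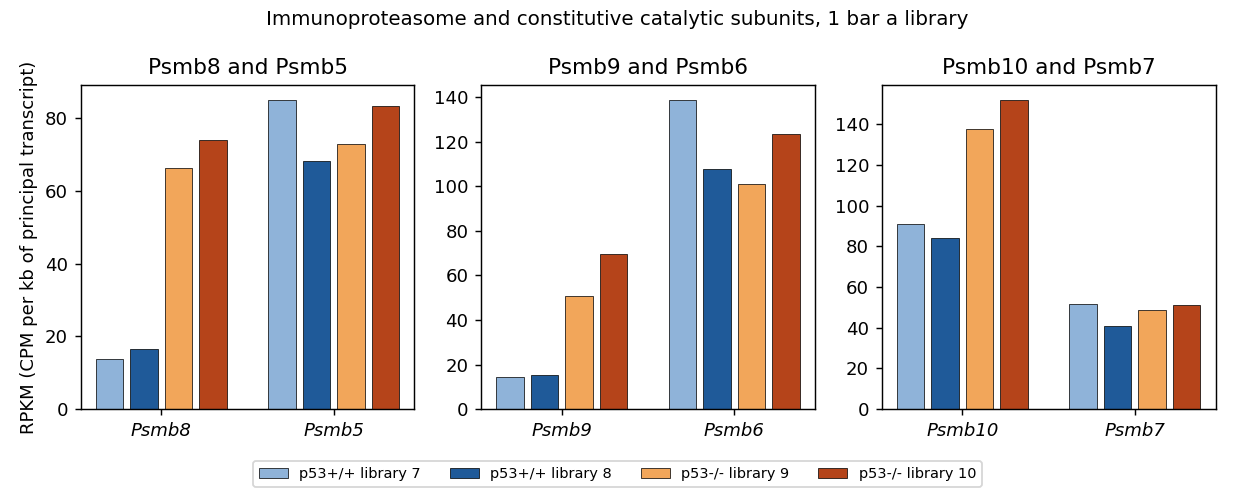
RPKM on the principal transcript of each immunoproteasome subunit and of the constitutive subunit it replaces, as 1 bar for each of the 4 libraries. From these values the share of Psmb8 in its pair with Psmb5 was 13.9% and 19.5% in p53+/+ and 47.6% and 47.0% in p53-/- SI. That of Psmb10 in its pair with Psmb7 was between 63.7% and 74.8% in all 4.

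No other gene of the proteasome core passed the test. Of 16 other core subunits and assembly factors, 0 passed the test by edgeR or DESeq2 and 0 had an unadjusted p under 0.05, with a median log2 fold change of 0.11. Psma1, an outer ring subunit, was the highest at 0.32 and the assembly chaperone Psmg3 the lowest at -0.32. The PA28 activator, an interferon-inducible cap of the proteasome built from the products of Psme1 and Psme2, had intermediate values. Psme2 was at 56.3, 79.0, 127 and 149 CPM in libraries 7, 8, 9 and 10, a log2 fold change of 1.03 (edgeR adjusted p = 0.119). Psme1 was at 129, 122, 167 and 209 CPM, with a log2 fold change of 0.58 (edgeR adjusted p = 0.211). Neither overlapped between genotypes, and neither passed edgeR's test, while DESeq2 called Psme2 (adjusted p = 0.00256). Psme3, which encodes the nuclear PA28 gamma, was the lowest of the 4 activator genes at a log2 fold change of -0.02.

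The transporter that takes peptides into the endoplasmic reticulum is a dimer of TAP1 and TAP2. Tap1 (ENSMUSG00000037321) was at 46.7 and 54.0 CPM in p53+/+ SI and at 142 and 180 CPM in p53-/- SI, which were well apart. The log2 fold change was 1.68, or 3.20-fold (standard error 0.199), with an adjusted p from edgeR of 0.05003, just short of the threshold of 0.05. Among 13 alternatives 6 put Tap1 past the threshold, DESeq2 with an adjusted p of 1.28e-10 and the omission of library 7 with 0.0450, while without library 10 it was 0.407 at a log2 fold change of 1.54. Tap2 (ENSMUSG00000024339) was at 22.9, 32.2, 50.8 and 61.9 CPM in libraries 7, 8, 9 and 10. The libraries did not overlap, and its log2 fold change of 1.03 (standard error 0.225, 0.93 without library 10) had an adjusted p of 0.119 from edgeR. The ratio of Tap1 to Tap2 counts was 2.04 and 1.68 in p53+/+ and 2.80 and 2.91 in p53-/- SI. The stretch between the starts of Tap1 and Psmb9, with the boxes printed earlier, thus belongs to a pair of genes with log2 fold changes of 1.68 and 2.02. The overlap of their annotated transcripts is small, with 3.33% of the 50-base windows of Tap1 and 4.19% of those of Psmb9 shared with other genes. Of the windows of Tap2, 11.6% are shared with other genes, so that its reads could have been split.

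Tapasin, the product of Tapbp (ENSMUSG00000024308), bridges TAP and the empty class I molecule. Of the 50-base windows of Tapbp, 23.2% are shared with other genes, so that its reads could have been split. Tapbp was at 222 and 261 CPM in p53+/+ and at 299 and 288 CPM in p53-/- SI, and its log2 fold change of 0.28 (standard error 0.191, 0.35 without library 10) did not pass the test (edgeR adjusted p = 0.521). Its relative TAPBPR, the peptide editor encoded by Tapbpl, was at 37.1, 46.3, 81.7 and 74.3 CPM in libraries 7, 8, 9 and 10, a log2 fold change of 0.90 (edgeR adjusted p = 0.105). Its count was 0.167 and 0.177 of that of Tapbp in p53+/+ and 0.273 and 0.258 in p53-/- SI. Among 11 loading chaperones and editing factors, 0 passed edgeR's test, 2 had an unadjusted p under 0.05 and DESeq2 called 2. All 11 had a positive log2 fold change, with a median of 0.42. Tapbpl was the highest and Ganab, a glucosidase subunit that trims glycans, the lowest at 0.12. Calreticulin (Calr), calnexin (Canx) and ERp57 (Pdia3), which hold and fold the heavy chain, had log2 fold changes of 0.20, 0.19 and 0.42. The 8 tested peptide trimming genes had log2 fold changes with a median of 0.15. None rose or fell by edgeR, where 1 had an unadjusted p under 0.05 and a lower level, and DESeq2 called 1 lower. Lap3, an aminopeptidase, was the highest at 0.38 and Blmh, another cytosolic peptidase, the lowest at -0.62 (edgeR adjusted p = 0.149). Erap1, the aminopeptidase of the endoplasmic reticulum, was at 87.7, 89.2, 106 and 94.3 CPM.

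None of the genes of the class I molecule itself passed edgeR's test, while DESeq2 called H2-D1 and neither H2-K1 nor B2m. H2-K1 (ENSMUSG00000061232), a classical heavy chain, was at 1726 and 1666 CPM in p53+/+ SI and at 1750 and 2068 CPM in p53-/- SI. Library 9 exceeded library 7 by only 1.01-fold, so that the genotypes were barely apart. The log2 fold change was 0.17 (standard error 0.271, edgeR adjusted p = 0.804) and 0.09 without library 10.

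H2-D1 (ENSMUSG00000073411), the other classical heavy chain, was at 1118, 1018, 1491 and 1675 CPM in libraries 7, 8, 9 and 10. Its log2 fold change was 0.57 (standard error 0.252, edgeR adjusted p = 0.320) and 0.53 without library 10. DESeq2 gave an adjusted p of 0.0131. The ratio of H2-D1 to H2-K1 counts was 0.648 and 0.611 in p53+/+ and 0.852 and 0.810 in p53-/- SI, without overlap. These genes share sequence with other heavy chains (9.63% of the 50-base windows of H2-K1 and 12.8% of those of H2-D1), so their reads could have been split.

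B2m (ENSMUSG00000060802) encodes β2-microglobulin, the light chain of class I molecules, and shares no window with another gene. It was at 987 and 883 CPM in p53+/+ and at 1188 and 1646 CPM in p53-/- SI, with library 10 well above library 9. Its log2 fold change of 0.60 (standard error 0.281, edgeR adjusted p = 0.344) was 0.39 without library 10. The 3 genes with the X2 and Y boxes 20 bases apart thus had log2 fold changes of 0.17, 0.57 and 0.60. None of them passed edgeR's test, and DESeq2 called H2-D1.

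Set beside one another, the members differed from 1.13-fold for H2-K1 to 15.8-fold for Nlrc5. Levels are compared between genes per kilobase of all annotated exons (RPKM). H2-K1, H2-D1 and B2m were at 395 to 1148 RPKM in the p53+/+ libraries and had fold changes of 1.13 to 1.52, while Nlrc5, Tap1, Tap2, Psmb8 and Psmb9 were at 0.175 to 9.87 RPKM there and had fold changes of 2.05 to 15.8. Psmb10 and Tapbp lay between in level, at 61.2 to 72.0 RPKM, and had fold changes of 1.65 and 1.21. The order in p53+/+ SI was B2m, H2-K1, H2-D1, Psmb10, Tapbp, Tap1, Psmb8, Tap2, Psmb9 and Nlrc5, from 1087 down to 0.282 RPKM. Psmb10 and Tapbp overlapped over the libraries, and so did Psmb8 and Tap2. In p53-/- SI the order was B2m, H2-K1, H2-D1, Psmb10, Tapbp, Psmb8, Tap1, Psmb9, Tap2 and Nlrc5, from 1647 down to 4.45 RPKM, with overlap between H2-K1 and H2-D1 and between Psmb8 and Tap1. On the principal transcript in place of all exons, B2m and H2-K1 overlapped in p53+/+ SI, at 1148 and 1027 RPKM for B2m and 1066 and 1029 RPKM for H2-K1. Psmb9, at 14.2 and 15.4 RPKM, then lay above Tap2, at 6.65 and 9.35 RPKM, and overlapped Psmb8, which overlapped Tap1. In p53-/- SI on the principal transcript, Psmb9 at 50.8 and 69.5 RPKM overlapped Tap1 at 48.1 and 60.9 RPKM and came above it in the mean, while H2-K1 no longer overlapped H2-D1 and Psmb8 no longer overlapped Tap1.

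**Figure D3:**
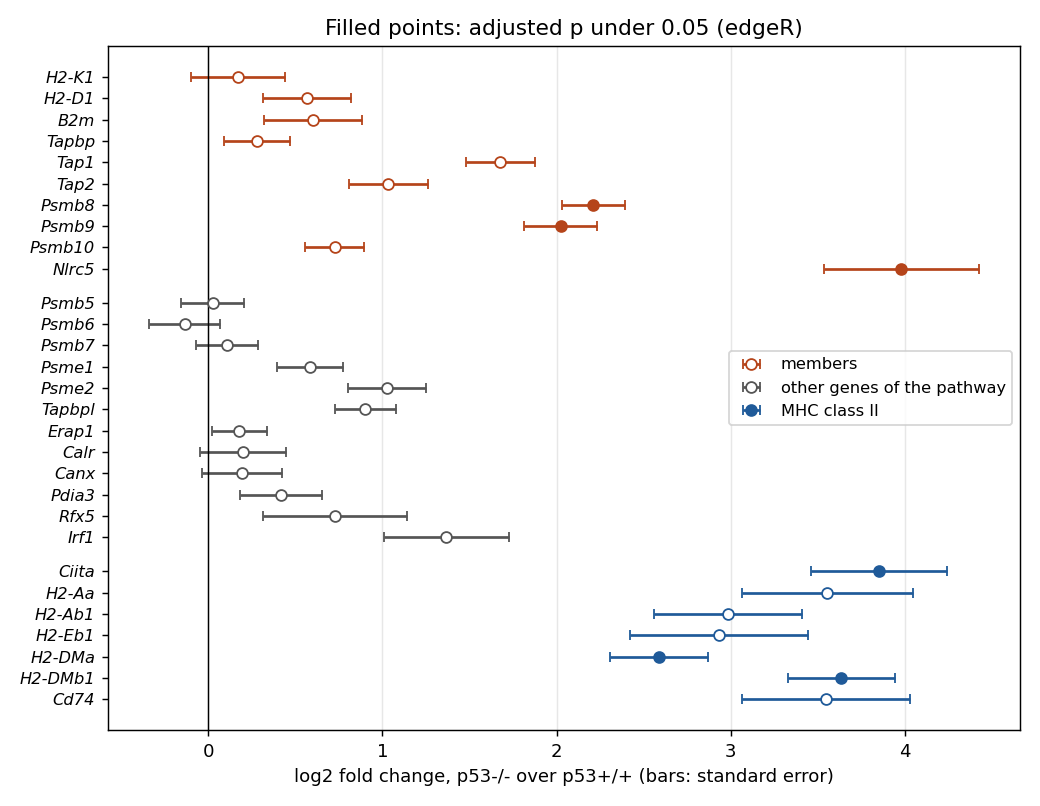
Fitted log2 fold changes (p53-/- over p53+/+) with standard errors for the members, other genes of the pathway and class II genes, with filled points past the threshold. Among the members Nlrc5 (3.98), Psmb8 (2.21) and Psmb9 (2.02) passed it, while the constitutive subunits Psmb5, Psmb6 and Psmb7 sat at 0.03, -0.13 and 0.11.

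Heavy chain genes outside the members, which encode nonclassical class I molecules for the most part, were read from 27 further rows. Of these, 17 had enough counts to be tested, 14 of these had a positive log2 fold change, 9 had an unadjusted p under 0.05 and a higher level, and 0 passed edgeR's test, while DESeq2 called 6 higher. The median log2 fold change was 0.71, also with 3 counts set for H2-Q6 in each p53+/+ library. H2-Q6 had 1 and 3 counts in p53+/+ SI and 49 and 242 in p53-/- SI. With 3 counts set for each p53+/+ library, it was 37.3-fold higher. With library 9 alone on the p53-/- side, the same measure was 11.3-fold. H2-Q4 came nearest to the threshold, at 23.8, 33.0, 78.8 and 91.9 CPM and a log2 fold change of 1.59 (edgeR adjusted p = 0.0569). H2-Q6 shares 35.0% and H2-Q4 36.4% of their 50-base windows with other genes, the H2-Q genes among them, so both values are uncertain. H2-T23, which encodes Qa-1, a ligand of inhibitory receptors on natural killer cells, was at 339, 332, 410 and 435 CPM, a log2 fold change of 0.33. H2-T3, which encodes the thymus leukemia antigen known from intestinal epithelium, was at 159 and 166 CPM in p53+/+ and below both at 139 and 121 CPM in p53-/- SI. H2-Bl had the lowest log2 fold change, -0.38 (edgeR adjusted p = 0.543). The 10 heavy chain genes that could not be tested had 0 to 9 counts in each library.

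**Figure D4:**
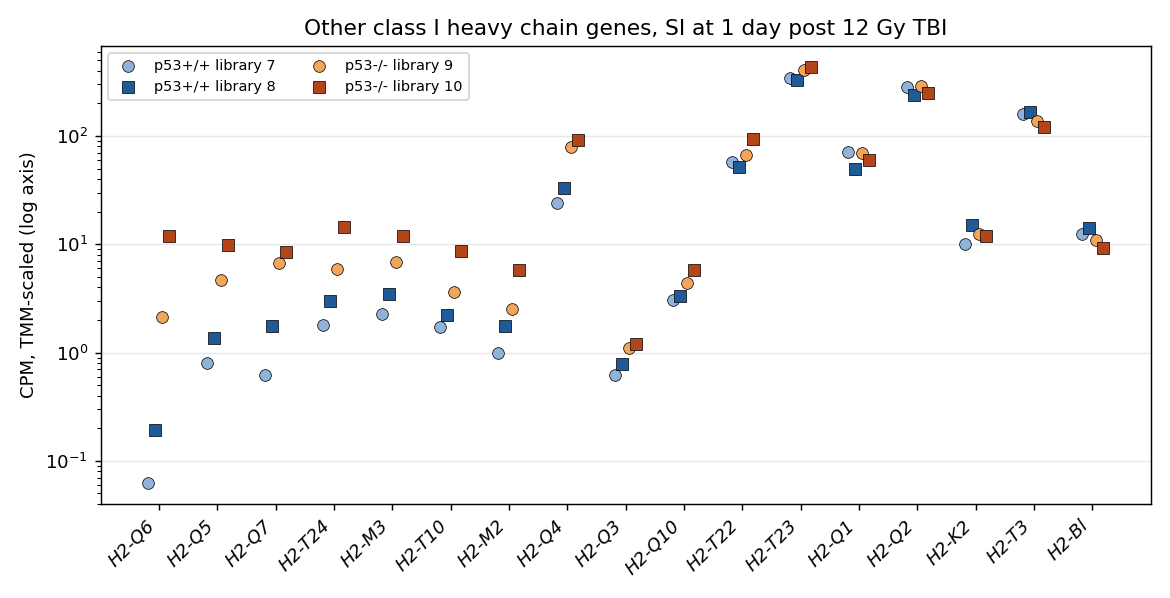
CPM of the 17 tested heavy chain genes outside the members in the 4 libraries, on a log axis. H2-Q4 ran from 23.8 and 33.0 CPM in p53+/+ to 78.8 and 91.9 CPM in p53-/- SI, while H2-T3 was lower in both p53-/- libraries, at 139 and 121 CPM against 159 and 166.

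Interferon gamma signalling was described by 13 genes, of which 12 could be tested, 9 had a positive log2 fold change and 0 passed edgeR's test, while DESeq2 called 5 higher and 1 lower. Of these 12, 6 had an unadjusted p under 0.05 and a higher level, and 1 a lower level. Of all 16094 genes tested, 1617 and 1275 had such a p with a higher and a lower level. DESeq2 called 5.05% of all genes higher and 4.12% lower. The cytokine gene itself, Ifng, had 0 and 2 counts in p53+/+ SI and 8 and 13 in p53-/- SI, too few to be tested. With 3 counts set for each p53+/+ library, Ifng was 2.62-fold higher, and 1.84-fold higher without library 10. Irf1, an interferon-induced transcription factor that acts on class I promoters, was at 135, 65.5, 252 and 265 CPM in libraries 7, 8, 9 and 10, a log2 fold change of 1.37 (edgeR adjusted p = 0.156). Socs1, the feedback inhibitor of the pathway, was the highest at a log2 fold change of 2.08 (edgeR adjusted p = 0.119). The receptor subunit Ifngr1 was the lowest, at 341 and 317 CPM in p53+/+ and 219 and 198 CPM in p53-/- SI (log2 fold change -0.66, edgeR adjusted p = 0.171).

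Class II molecules present peptides taken up from outside and are expressed mainly by antigen presenting cells. Their genes had a higher median log2 fold change than the members (0.88 for the members), a difference that was not tested. The 10 class II genes summed to 350 and 711 CPM in p53+/+ and to 4212 and 6695 CPM in p53-/- SI. By edgeR Ciita, H2-DMb1 and H2-DMa rose (3 of 9 tested), and the median log2 fold change of the 9 was 3.55. All 9 had an unadjusted p under 0.05 by edgeR, and DESeq2 called 9, all with a higher level. H2-Ob, of the class II editor H2-O, was the highest at 5.72 (edgeR adjusted p = 0.171), with 5, 12, 55 and 1112 counts in libraries 7, 8, 9 and 10. Without library 10 the class II median was 2.67 and 0 of the 9 passed edgeR's test, with 7 at an unadjusted p under 0.05.

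Class I molecules are read by T cell coreceptors and by receptors of natural killer cells. Of 15 such receptor genes, 7 could be tested and 0 passed edgeR's test, while 5 had an unadjusted p under 0.05 and DESeq2 called 4, all with a higher level. Cd8a, a chain of the CD8 coreceptor, was at 1.55 and 3.44 CPM in p53+/+ and at 19.9 and 19.8 CPM in p53-/- SI, a log2 fold change of 2.99 (edgeR adjusted p = 0.0658). Cd8b1, the other CD8 chain, had 0 counts in both p53+/+ libraries and 44 and 90 in libraries 9 and 10. With 3 counts set for each p53+/+ library, Cd8b1 was 16.8-fold higher, and 10.1-fold higher without library 10. Klrk1, which encodes the activating receptor NKG2D, was the lowest at 1.24.

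The genes with a profile most like that of the members were sought among 9620 tested genes with a mean log2 CPM of at least 3, as the root mean square difference of centred log2 CPM over the 4 libraries from the mean profile of the members. The nearest were Lyn, a Src family kinase (0.0443), Pole, a DNA polymerase subunit (0.0597), and Ift22, a protein of ciliary transport (0.0649). Mdn1, a factor of ribosome assembly (0.0915), and Soat1, an enzyme that esterifies cholesterol (0.0961), followed. Lyn was at 39.6, 46.3, 102 and 113 CPM in libraries 7, 8, 9 and 10. The 4 points of each profile come from the same libraries that gave the fold changes, and the log2 fold changes of these 5 genes ran from 1.15 to 1.34.

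**Figure D5:**
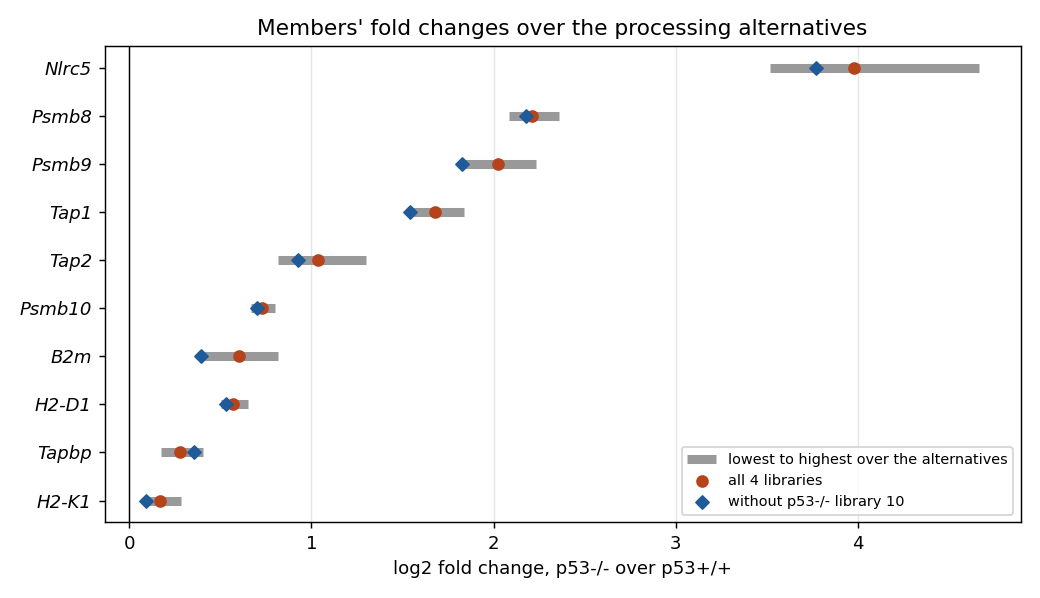
Log2 fold change of each member from all 4 libraries, without library 10, and as the range over the processing alternatives. The values of each member kept their sign, with Nlrc5 between 3.52 and 4.66 and H2-K1 between 0.09 and 0.29.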

How the data were processed

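RNA of whole SI was enriched for poly-A and sequenced by Novogene. Per the labels and the study's methods, the values that the authors deposited are counts of reads on each gene in 4 libraries, not normalized. The submitters' processing notes name fastp, HISAT2 2.0.5, featureCounts 1.5.0-p3 and DESeq2 1.20.0. The genome build, annotation and strand setting of the counting are not given in the sources used here, so reads of paralogs and of overlapping or antisense genes could have been split.

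From these counts, the genotypes were compared with edgeR 4.0.16 in R 4.3.3: TMM scaling, filterByExpr (16094 genes kept), the two-sided quasi-likelihood test, and Benjamini-Hochberg adjustment over all genes tested with a threshold of 0.05. The spread rests on 2 animals per genotype. Nothing in the labels says that they were separate litters or preparations, and replicates differed by more than sampling noise (chi-square per degree of freedom 48.0 and 69.5). The test was checked on simulated data, where it missed many of the changed genes and made some false calls. A gene that did not pass may therefore still have changed, and a gene that passed may be a false call. Alternatives were other scalings and filters, DESeq2 1.42.0, edgeR's likelihood ratio test, and each library left out. For genes at or under 3 counts in both p53+/+ libraries, folds were taken with 3 counts set in each and the p53-/- counts as observed. These folds are not confidence limits. They cover neither the counting error of the p53-/- counts nor the spread between animals. The table used here gave no gene lengths, so RPKM used GENCODE M21 exons, in which 91.8% of gene identifiers were found, with the APPRIS principal transcript as an alternative added after the data were seen. Promoters came from RefSeq GRCm38.p6.

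The members and lists were chosen with earlier results of these data known. Genes named are all members, every gene past the threshold and the highest and lowest tested gene of each pathway list, a set of other pathway and marker genes, and the 5 nearest profiles. Rn18s-rs5 and the genes H2-Q4, H2-T23 and H2-T3 were named after their values were seen. The values of 1 gene of the interferon gamma list are not reported here.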

Additional observations from a re-analysis of the deposited data

How the results depend on the processing

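No paired analysis was possible because the columns of the count table carry no replicate number shared between genotypes. All 10 members kept the sign of their log2 fold change under every alternative that could be run. Across alternatives, 102 member values stayed on the same side of the threshold, 14 crossed to past it and 13 lost it.

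The number of genes called higher and lower was 26 and 20 when scaled by library size only, 29 and 20 by upper-quartile factors, 812 and 663 with DESeq2, 833 and 462 with the likelihood ratio test, 1433 and 761 with no filter, 24 and 18 with at least 10 counts in every library, and 4 and 2 at an adjusted p under 0.01. Leaving out each library in turn gave 0 to 565 higher and 0 to 302 lower. Of the members, 1 was called with library size only or upper-quartile factors, 7 with DESeq2, 6 with the likelihood ratio test or no filter, 2 with RLE factors, and 0 at 0.01. Leaving out each library gave 0 to 5, with 0 without library 9 or 10. Without library 10 edgeR called 0 genes, with 754 higher and 449 lower at an unadjusted p under 0.05. The median of all genes was 0.15 with no filter, against -0.01. The median log2 fold change of the members was 1.07 with the 50 most abundant genes left out, H2-K1 among them. The values of the constitutive subunits turned sign: leaving out each library in turn gave -0.12 to 0.20 for Psmb5, with -0.02 without library 10, -0.30 to 0.064 for Psmb6, with 0.0028 without library 9, and -0.053 to 0.30 for Psmb7. The cause was not tested.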

Other observations

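MHC class I-like genes outside the H2 complex encode ligands and carriers with the class I fold. Of 11 listed, 7 could be tested and 0 passed edgeR's test, 1 had an unadjusted p under 0.05, and DESeq2 called 1 higher. The median log2 fold change was 0.30. Ulbp1, a stress-induced ligand of the receptor NKG2D, was the highest, at 1.42 and 1.10 CPM in p53+/+ SI and at 6.53 and 8.61 CPM in p53-/- SI (log2 fold change 2.58, edgeR adjusted p = 0.0836). Its libraries did not overlap. Fcgrt, which encodes the neonatal Fc receptor, was the lowest at a log2 fold change of -0.16, at 95.6, 103, 85.9 and 91.7 CPM in libraries 7, 8, 9 and 10.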
